A study of Mus musculus with 5 samples.

Results

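Chromosome 12 genes of mouse small cell lung cancer tumours were described here as 1 region: the rows of the read count table placed on chromosome 12 with a mean level of 16 or more CPM (counts scaled to the total count of each tumour) over the 5 tumours. This took 367 of the 2480 chromosome 12 genes, out of 54532 genes in the table, and 352 of the 367 are protein coding. The region was selected on these same counts, because its level differed between tumours, so the shifts are given as a description without a test. The chromosome 12 genes lie between the starts of Rab10os at 3235504 and of Sp8 at 118846329 (build mm10), so they cover the chromosome from end to end. The mean-level rule cuts through a continuum, with Pld4 (16.1 CPM) and Fbln5 (16.1 CPM) just inside it and Rdh14 (15.8 CPM) and Trmt5 (15.8 CPM) just outside.

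The tumours were lung tumours of the genotype RPP, whose letters the labels do not expand, frozen at necropsy. Of these, 2 carried the treatment label vehicle and 3 the label LSN, which stands in this series for a compound that inhibits Aurora A, a mitotic kinase. Neither the age of the mice nor the dose or duration is given, and the labels do not tie tumours to animals, so p-values measure only the spread between these samples, which may be partly technical. Total counts lay between 17439049 and 19766604. All 12 markers of neuroendocrine lung tumours on a fixed list, Insm1 among them, had counts in every tumour, with a summed level of 2941 to 7751 CPM with vehicle and 5651 to 8625 CPM with LSN. All 12 markers of normal lung epithelium were also present in every tumour, at 7097 and 8970 CPM with vehicle and at 1954, 352 and 1182 CPM in LSN replicates 1, 2 and 3, and the tumours were therefore mixtures of cells.

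Tumour cells of many kinds gain and lose whole chromosomes, and the transcripts of a chromosome then tend to follow its dose, gene by gene with wide scatter. Mouse chromosome 12 carries genes with roles in lung and neuroendocrine identity (Nkx2-1, Foxa1, Chga), the MYC family member Mycn, the immunoglobulin heavy chain locus, and the imprinted Dlk1-Dio3 region, where Dlk1 is expressed from the paternal copy and the noncoding RNAs Meg3 and Rian from the maternal copy. DNA was not measured here, and what share of a shift came from gene dose was not tested.

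Promoters of 6 genes are shown because they stand for the patterns described further on: Rps7 and Rrm2 followed the chromosome in both tumours that shifted, whereas Chga, Rsad2, Dlk1 and Meg3 departed from it in 1 or both of them. Each is 300 bases, from 250 before to 50 after the RefSeq start site (build GRCm38.p6, the assembly of mm10), written along the strand of the gene. They lie at chr12:28635904-28636203 (minus strand, Rps7), chr12:24708004-24708303 (plus, Rrm2), chr12:102554691-102554990 (plus, Chga), chr12:26456403-26456702 (minus, Rsad2), chr12:109452573-109452872 (plus, Dlk1) and chr12:109540746-109541045 (plus, Meg3). Capitals mark matches on either strand to the interferon response pattern (GAAA, any 2 bases, GAAA), the cyclic AMP response pattern TGACGTNA and the TATA pattern TATAAA, and in Meg3 the 2 TATA matches overlap.
Rps7: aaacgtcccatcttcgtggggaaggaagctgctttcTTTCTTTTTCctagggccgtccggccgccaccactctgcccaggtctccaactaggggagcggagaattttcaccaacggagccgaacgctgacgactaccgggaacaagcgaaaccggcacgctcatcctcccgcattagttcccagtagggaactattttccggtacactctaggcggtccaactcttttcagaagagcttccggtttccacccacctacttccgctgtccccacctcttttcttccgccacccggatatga
Rrm2: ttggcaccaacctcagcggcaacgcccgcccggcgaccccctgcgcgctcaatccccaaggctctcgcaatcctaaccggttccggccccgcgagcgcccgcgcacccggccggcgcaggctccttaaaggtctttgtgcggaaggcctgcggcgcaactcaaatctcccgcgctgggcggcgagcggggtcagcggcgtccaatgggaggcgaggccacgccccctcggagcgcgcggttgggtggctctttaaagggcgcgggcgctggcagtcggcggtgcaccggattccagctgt
Chga: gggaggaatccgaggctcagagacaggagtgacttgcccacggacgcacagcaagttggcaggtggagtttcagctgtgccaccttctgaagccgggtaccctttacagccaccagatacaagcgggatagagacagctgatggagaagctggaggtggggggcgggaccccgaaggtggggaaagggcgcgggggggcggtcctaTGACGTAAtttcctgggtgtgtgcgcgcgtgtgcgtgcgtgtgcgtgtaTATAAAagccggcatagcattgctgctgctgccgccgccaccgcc
Rsad2: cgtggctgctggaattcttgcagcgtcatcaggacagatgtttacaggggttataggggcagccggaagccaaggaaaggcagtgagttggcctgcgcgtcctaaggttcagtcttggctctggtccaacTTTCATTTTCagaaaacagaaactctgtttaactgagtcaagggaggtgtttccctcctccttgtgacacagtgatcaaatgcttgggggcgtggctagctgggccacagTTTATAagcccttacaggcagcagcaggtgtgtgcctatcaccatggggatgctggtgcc
Dlk1: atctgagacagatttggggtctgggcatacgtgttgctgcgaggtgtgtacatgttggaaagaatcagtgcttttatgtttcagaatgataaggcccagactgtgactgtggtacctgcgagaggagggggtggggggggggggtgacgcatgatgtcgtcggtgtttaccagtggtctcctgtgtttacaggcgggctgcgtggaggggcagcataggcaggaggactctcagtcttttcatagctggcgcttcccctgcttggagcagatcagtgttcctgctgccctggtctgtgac
Meg3: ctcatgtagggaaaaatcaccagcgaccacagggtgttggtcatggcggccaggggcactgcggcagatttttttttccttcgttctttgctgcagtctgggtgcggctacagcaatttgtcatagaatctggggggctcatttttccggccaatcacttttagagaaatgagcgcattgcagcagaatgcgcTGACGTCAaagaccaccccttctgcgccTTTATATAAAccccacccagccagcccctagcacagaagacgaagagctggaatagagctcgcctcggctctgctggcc

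The Chga promoter held a cyclic AMP response match whose first base lies 44 bases before the start site, and Meg3 held a perfect palindrome of that pattern at 57 bases. The TATA match of Chga is at -5 on this scale, past the RefSeq start site, which lies 28 bases from the deposited gene start. Rsad2, the gene of the antiviral protein viperin, held an interferon response match at 120 bases, and Rps7 held a match to the same letters at 214 bases. Among the 319 chromosome 12 genes with a promoter in the table, 3.13% held the interferon pattern, 5.64% the cyclic AMP pattern and 5.33% the TATA pattern, against 3.44%, 2.93% and 13.6% of all 32851 promoters. Among 7416 promoters of genes at the same level on the other autosomes, the shares were 2.80%, 5.50% and 6.57%, close to those of chromosome 12. The median number of CG dinucleotides per promoter was 24 on chromosome 12, 23 for these 7416 and 7 over the whole table, so the difference from the whole table was shared by other autosomal genes at this level.

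The level of chromosome 12 was low in LSN replicate 2 and high in LSN replicate 3, and close to the other autosomes in the other 3 tumours. For each gene, the deviation of a tumour was taken as its log2(CPM + 1) minus the mean of the 5 tumours, minus the median of that difference over the 9442 genes of the other 18 autosomes at the same level. The shift of chromosome 12 is the median deviation of its 367 genes. It was -0.73 in LSN replicate 2 and 0.58 in LSN replicate 3. As folds of the 5-tumour mean, relative to the same fold on the other autosomes, these are 0.604 and 1.49. In vehicle replicates 1 and 2 and in LSN replicate 1 the shift was 0.0027, 0.10 and 0.052. Since each gene is centred on a mean that holds all tumours, a low tumour raises the others, and the shift of LSN replicate 3 was 0.40 without LSN replicate 2, while that of LSN replicate 2 was -0.60 without LSN replicate 3.

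In neither of these 2 tumours did another autosome shift as far. In LSN replicate 2 the other 18 autosomes lay between -0.49 (chromosome 18) and 0.37 (chromosome 10), with an SD of 0.17, and in LSN replicate 3 between -0.22 (chromosome 10) and 0.36 (chromosome 4), with an SD of 0.16. In vehicle replicate 1, in contrast, chromosome 12 had the smallest shift of the 19 autosomes. Counts on the whole of chromosome 12 made up 3.45% and 3.79% of the total with vehicle, and 3.50%, 2.11% and 4.71% with LSN.

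**Figure D1:**
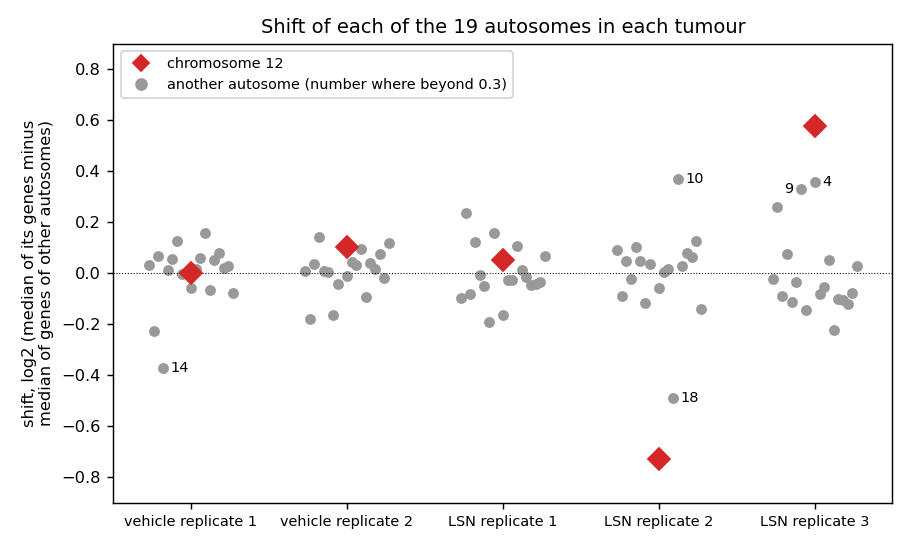
Shift of each autosome (vertical axis, log2) in each of the 5 tumours, with chromosome 12 as a red diamond and every other autosome as a grey point spread sideways for visibility. Chromosome 12 lies at -0.73 in LSN replicate 2 and at 0.58 in LSN replicate 3, outside the range of the grey points there and inside it in the other 3 tumours.

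Differences between tumours taken 2 at a time do not depend on the mean of all 5. The median log2 difference of the chromosome 12 genes, less that of the other autosomes, was 0.76, 0.85 and 0.79 for vehicle replicate 1, vehicle replicate 2 and LSN replicate 1 minus LSN replicate 2. The same 3 tumours minus LSN replicate 3 gave -0.59, -0.46 and -0.54. Among those 3 tumours themselves the differences were -0.078, -0.017 and 0.037. LSN replicate 2 minus LSN replicate 3 gave -1.30, a 2.46-fold difference, with 344 of the 367 genes (93.7%) lower in LSN replicate 2, and the largest difference of any other autosome between this pair was 0.60 in size.

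The shift ran through nearly all of the genes. In LSN replicate 2, 339 of the 367 genes (92.4%) had a deviation below 0, and in LSN replicate 3, 331 (90.2%) had one above 0. Both held for 313 genes (85.3%), against 28.5% of the genes on the other autosomes. LSN replicate 2 was the lowest of the 5 tumours for 292 genes (79.6%), where the background over all 9809 autosomal genes at this level was 26.3%. LSN replicate 3 was the highest for 254 genes (69.2%), with a background of 22.4%, and for 212 genes (57.8%) the former was lowest and the latter highest, with a background of 7.52%. A deviation of at least 1.5-fold downward was seen for 238 genes (64.9%) in LSN replicate 2 (background 13.5%) and one of at least 1.5-fold upward for 180 genes (49.0%) in LSN replicate 3 (background 9.03%). Against the shift, 12 genes were past 1.5-fold upward in LSN replicate 2 (background 10.8%) and 20 downward in LSN replicate 3 (background 9.36%). For 1 gene, Ifi27l2a, LSN replicate 3 was lowest and LSN replicate 2 highest (background 6.37%), and it met the level only through LSN replicate 2. In the vehicle tumours and LSN replicate 1, genes past 1.5-fold upward numbered 20, 57 and 34 (backgrounds 6.84%, 10.8% and 8.15%) and those past it downward 20, 21 and 24 (backgrounds 5.1%, 8.02% and 7.34%). These shares restate the shift that chose the region.

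The spread among the chromosome 12 genes was no wider than elsewhere. The interquartile range of the deviations was 0.51 in LSN replicate 2 and 0.41 in LSN replicate 3, against 0.55 and 0.47 for the other autosomes. The quartiles lay at -0.98 and -0.48 in LSN replicate 2 and at 0.38 and 0.79 in LSN replicate 3, so both quartiles were on the same side of 0 in each.

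**Figure D2:**
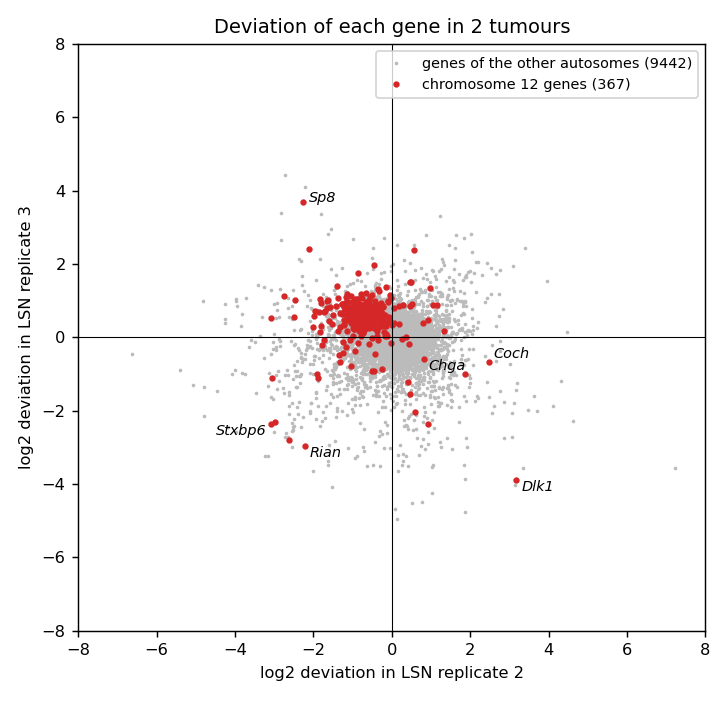
Log2 deviation of every gene in LSN replicate 2 (horizontal axis) against that in LSN replicate 3 (vertical axis), for the 367 chromosome 12 genes in red and the 9442 genes of the other autosomes in grey, with 6 genes named. The red points gather in the upper left, where 313 of the 367 lie, and Dlk1 is the red point farthest to the lower right.

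Along the chromosome the shift was present from the first genes to the last. In 12 windows of 10 Mb by start position, the median deviation lay between -0.93 and -0.58 in LSN replicate 2 and between 0.34 and 0.70 in LSN replicate 3, so that no window of either tumour crossed 0. The window from 40 to 50 Mb, which gave 0.34, held only 10 genes, and the one from 60 to 70 Mb, which gave -0.93, held 19. Over the 8 windows with 20 or more genes the ranges were -0.84 to -0.58 and 0.48 to 0.70. In the other 3 tumours the window medians ran from -0.13 to 0.49. Of 219 windows with at least 10 genes on the other autosomes, 4 were at or below the highest chromosome 12 window in LSN replicate 2, namely 3 on chromosome 18 and 1 on chromosome 8. In LSN replicate 3, 15 were at or above the lowest chromosome 12 window, 7 on chromosome 4, 6 on chromosome 9 and 2 on chromosome 8.

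At a finer scale, the median over 25 consecutive genes was below 0 in all 343 positions in LSN replicate 2, from -0.98 to -0.39, and above 0 in all 343 in LSN replicate 3, from 0.41 to 0.85. No position along the chromosome was found where this median of either tumour returned to 0, the median deviation of the other autosomes. The same running median lay between -0.15 and 0.16 in vehicle replicate 1, between -0.035 and 0.35 in vehicle replicate 2 and between -0.32 and 0.29 in LSN replicate 1.

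**Figure D3:**
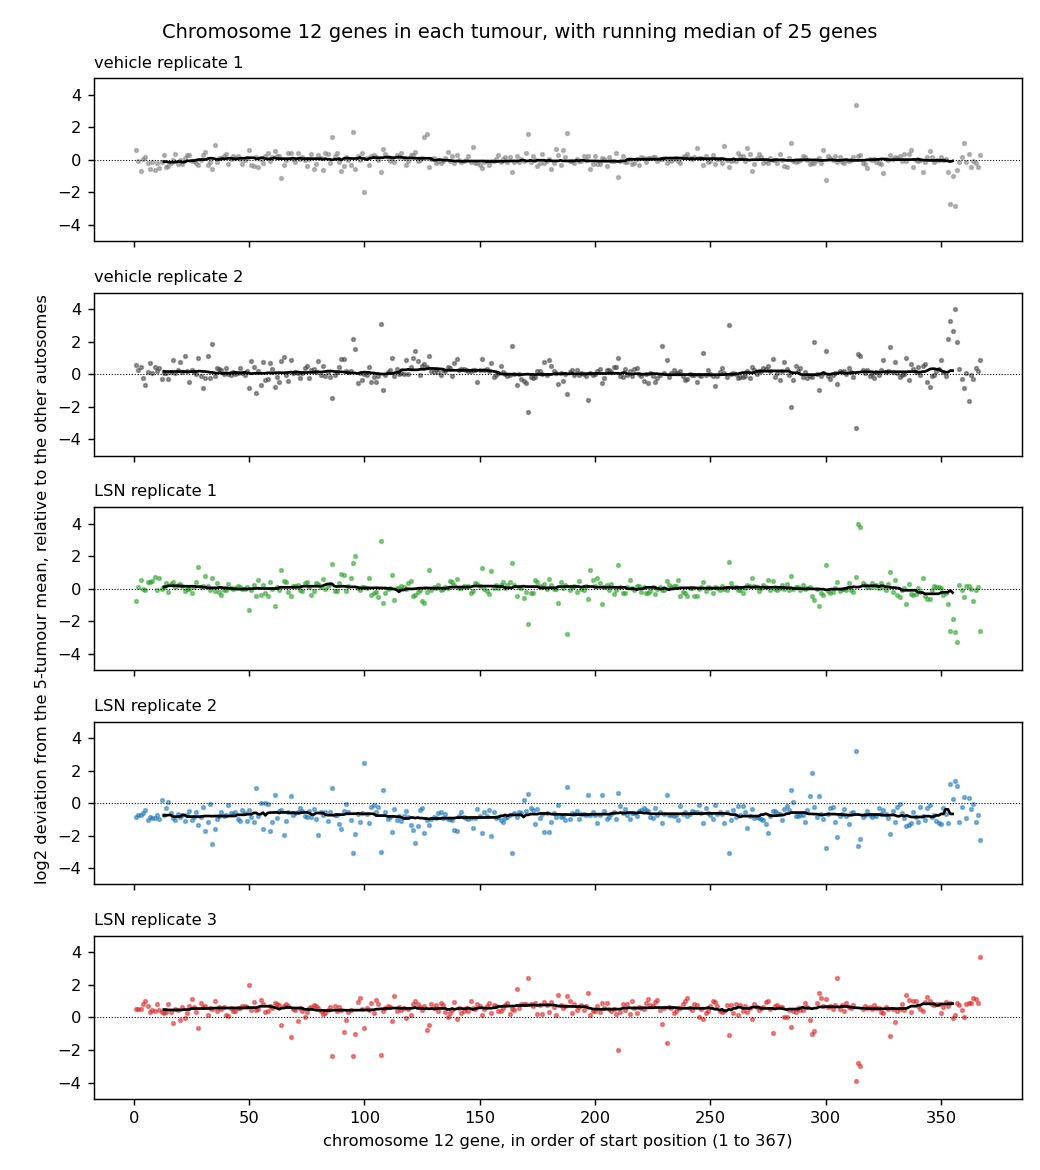
Log2 deviation of each of the 367 genes (points) in order of start position, 1 panel per tumour, with the running median of 25 genes as a black line and 0 as a dotted line. The line stays below 0 throughout in LSN replicate 2 and above 0 throughout in LSN replicate 3, and lies between -0.32 and 0.35 in the other tumours.

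Chromosome 12 genes below the level of 16 CPM, which the rule did not take, shifted in the same directions. The 126 genes with a mean of 4 to 16 CPM had shifts of -0.52 and 0.56 in LSN replicates 2 and 3, with 91.3% below and 81.0% above 0, and the 115 genes of 1 to 4 CPM had shifts of -0.32 and 0.35. Adding 1 CPM before the logarithm understates differences at such low levels. Among the genes taken, the shift in LSN replicate 2 was -0.71 at 16 to 64 CPM, -0.74 at 64 to 256 CPM and -0.89 for the 21 genes above 256 CPM, and that in LSN replicate 3 was 0.58, 0.58 and 0.54.

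Transcription factors, noncoding genes and genes grouped by promoter had medians of the same sign as the whole set in LSN replicates 2 and 3. The 28 transcription factors marked in the file had medians of -0.73 and 0.62 in LSN replicates 2 and 3, beside -0.73 and 0.58 for the other 339 genes. Genes with 24 or more CG dinucleotides in the promoter had medians of -0.70 and 0.59 (167 genes), and those with fewer had -0.80 and 0.56 (152 genes). The 10 genes with an interferon response match had -0.68 and 0.55, the 18 with a cyclic AMP response match -0.69 and 0.49, and the 17 with a TATA match -0.74 and 0.38. The 15 genes that are not protein coding had -0.61 and 0.49. Genes with like values in both vehicle tumours were most often on the side of the shift. Of the 134 whose vehicle values differed by less than 0.25 on the log2 scale, 97.0% were below 0 in LSN replicate 2 and 97.8% above 0 in LSN replicate 3. Of the 55 genes whose vehicle values differed by 1 or more, 67.3% and 63.6% were. On the other autosomes these shares were 49.8% and 48.9% for the former class and 49.0% and 50.8% for the latter.

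Lineage genes of the lung and of neuroendocrine cells showed the shift with large departures. On the list of 18 genes, 13 met the level, and 10 of these were below 0 in LSN replicate 2 and 9 above 0 in LSN replicate 3, with medians of -1.01 and 0.52. Nkx2-1, the lung lineage transcription factor, was at 278 and 492 CPM with vehicle and at 246, 102 and 499 CPM in LSN replicates 1, 2 and 3. LSN replicate 2 was thus lowest and LSN replicate 3 highest, although vehicle replicate 2 came close to the latter. Sox11, a transcription factor of neural progenitors, was at 308 and 493 CPM with vehicle and at 409, 90.8 and 494 CPM with LSN.

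Chga encodes chromogranin A, a core protein of neuroendocrine granules, and its deviations in LSN replicates 2 and 3 had signs opposite to those of its chromosome. It was at 1540 and 176 CPM with vehicle and at 1258, 1284 and 476 CPM in LSN replicates 1, 2 and 3. Its deviation was 0.83 in LSN replicate 2 and -0.60 in LSN replicate 3, and the groups overlapped. Vehicle replicate 1 and LSN replicate 1 deviated much like LSN replicate 2, by 1.03 and 0.77. The lowest tumour for Chga was vehicle replicate 2, at -2.02, and not LSN replicate 3. Some neuronal genes lay much further below their mean in LSN replicate 2 than the chromosome did. Rtn1, a reticulon of neuroendocrine cells, was at 69.9 and 380 CPM with vehicle and at 355, 12.7 and 164 CPM with LSN. Nrxn3, a presynaptic adhesion protein, was at 9.38 and 109 CPM and at 41.6, 0.658 and 5.38 CPM. Akap6, an anchor of protein kinase A, was at 6.96 and 106 CPM and at 98.8, 0.607 and 1.59 CPM. Nrxn3 and Akap6 were low in both LSN replicates 2 and 3, so that they did not follow the higher level of the chromosome in the latter.

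Stxbp6, a SNARE-binding protein, separated LSN replicates 2 and 3 from the rest, at 601 and 788 counts with vehicle and at 532, 4 and 19 counts with LSN. Coch, the gene of the matrix protein cochlin, ran the other way, at 7.75 and 32.3 CPM with vehicle and at 34.9, 183 and 19.4 CPM with LSN, far higher in LSN replicate 2 than elsewhere. Its deviation of 2.49 in LSN replicate 2 was, with that of Dlk1, the farthest against the shift.

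The imprinted Dlk1-Dio3 region lies near 109 Mb, within the shifted chromosome, and none of its genes at the level followed the shift in both tumours. In LSN replicate 2, Meg3 and Rian lay below 0, at -2.62 and -2.20, and Dlk1 above it, at 3.17. In LSN replicate 3, Meg3, Rian and Dlk1 all lay below 0, at -2.79, -2.96 and -3.89, against the shift. Dlk1 (109452823 to 109463336), a Notch-related membrane protein, had 3509 and 15 counts with vehicle and 532, 3300 and 5 with LSN. It was high in vehicle replicate 1 and LSN replicate 2, and nearly absent from vehicle replicate 2 and LSN replicate 3. Meg3 (109541001 to 109571726) had 254 and 501 counts with vehicle and 3561, 21 and 16 with LSN. Rian (109603940 to 109661716) had 341 and 575 counts with vehicle and 3897, 48 and 20 with LSN. The 2 noncoding RNAs had the same order of tumours, with LSN replicate 1 far above the rest. Without that tumour, the mean levels of both lie under 16 CPM. LSN replicate 2 therefore had Dlk1 at the level of vehicle replicate 1 with little Meg3 and Rian, and LSN replicate 3 had hardly any of the 3. Of the remaining genes on the list, Rtl1 had 451 counts in vehicle replicate 1 and 0 to 12 elsewhere, Mirg reached 50 counts in LSN replicate 1, and Dio3 had 2 to 23. These 3 were under the level.

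**Figure D4:**
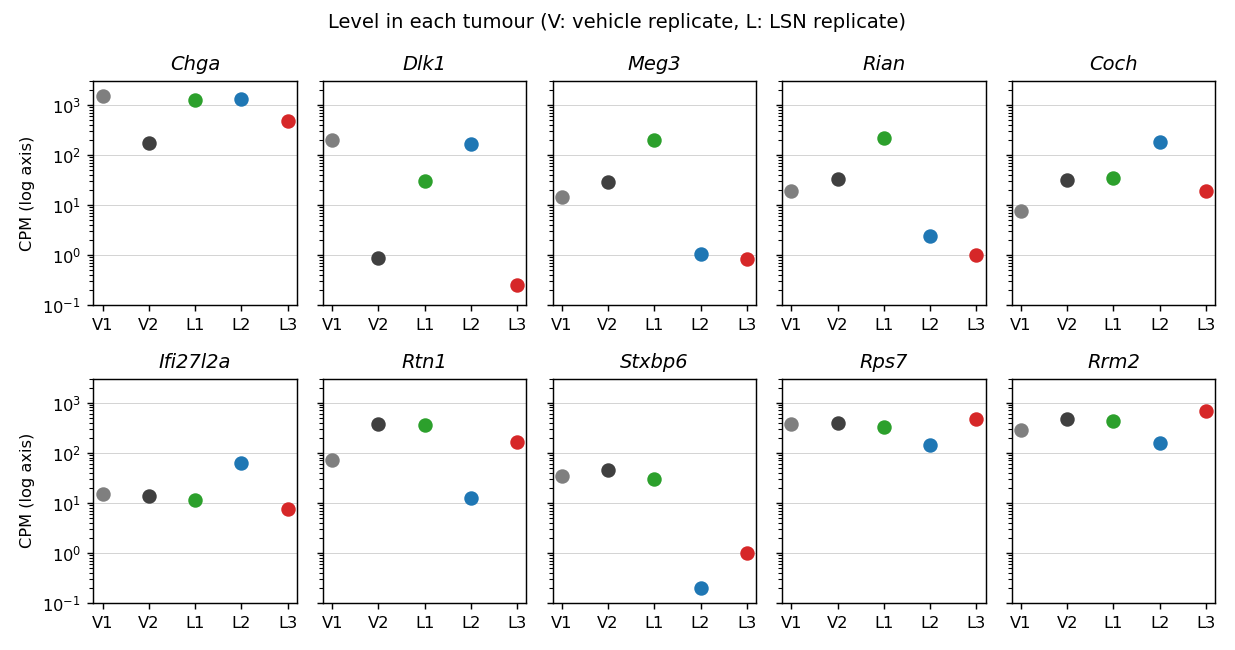
Level in CPM on a log axis of 10 chromosome 12 genes in each tumour, vehicle replicates as V1 and V2 and LSN replicates as L1 to L3, 1 point per tumour. Rps7 and Rrm2 are lowest in L2 and highest in L3, whereas Chga, Dlk1, Coch and Ifi27l2a are higher in L2 than in L3, and Meg3, Rian and Stxbp6 are low in both.

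Most genes of the MYC network, DNA replication and cell division shifted with the chromosome, as did most of its genes in general. On the list of 18, 16 met the level. Of these, 16 were below 0 in LSN replicate 2 and 15 above 0 in LSN replicate 3, with medians of -0.85 and 0.55. Of all chromosome 12 genes at the level, 92.4% were below 0 in LSN replicate 2 and 90.2% above 0 in LSN replicate 3. Whether this or any other list differs from these shares was not tested. Rrm2, a subunit of ribonucleotide reductase, was at 290 and 482 CPM with vehicle and at 430, 158 and 695 CPM in LSN replicates 1, 2 and 3. Vrk1, a chromatin kinase, was at 77.6 and 67.2 CPM and at 66.1, 27.8 and 110 CPM. Both were lowest in LSN replicate 2 and highest in LSN replicate 3. Mycn was the exception in LSN replicate 3, at 16.4 and 40.8 CPM with vehicle and at 52.6, 7.34 and 12.2 CPM with LSN. Its partner Max, the shared dimerization partner of the MYC proteins, varied less, at 51.8 and 63.1 CPM and at 58.4, 34.3 and 62.8 CPM.

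Genes of protein folding, turnover and transport had medians of -0.53 and 0.49 in LSN replicates 2 and 3, with 16 of 16 below 0 in the former and 14 above 0 in the latter. Proteasome subunits lay close together. Psma6, of the core particle, was at 144 and 127 CPM with vehicle and at 138, 73.9 and 186 CPM with LSN, and Psmc1, of the regulatory particle, was at 170 and 152 CPM and at 165, 83.1 and 234 CPM. Hsp90aa1, a cytosolic chaperone, was at 833 and 1333 CPM with vehicle and at 1231, 800 and 1650 CPM with LSN, so that vehicle replicate 1 was nearly as low as LSN replicate 2. Klc1, a kinesin light chain outside the list and among the 6 highest genes, was at 419 and 611 CPM and at 541, 161 and 305 CPM, and was not among the high values in LSN replicate 3.

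Genes of RNA metabolism, translation and chromatin at the level all lay on the side of the shift in LSN replicates 2 and 3. Of 23 genes, 23 were below 0 in LSN replicate 2 and 23 above 0 in LSN replicate 3. The medians were -0.77 and 0.66. Rps7, a protein of the small ribosomal subunit, was at 374 and 396 CPM with vehicle and at 322, 142 and 479 CPM with LSN. Dicer1, the endonuclease of microRNA maturation, was at 131 and 125 CPM and at 128, 69.4 and 230 CPM. Dnmt3a, a DNA methyltransferase, was at 236 and 283 CPM and at 354, 129 and 427 CPM. In each of these, LSN replicates 2 and 3 were the lowest and highest tumours.

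Genes of mitochondria and metabolism had medians of -0.76 and 0.70, with 17 of 17 below 0 in LSN replicate 2 and 16 above 0 in LSN replicate 3. Dld, a subunit of the pyruvate dehydrogenase complex, was at 127 and 120 CPM with vehicle and at 130, 68.2 and 165 CPM with LSN. Hif1a, the oxygen-regulated transcription factor, was at 135 and 126 CPM and at 120, 112 and 249 CPM, so it was high in LSN replicate 3 and only slightly under the others in LSN replicate 2. Ckb, brain-type creatine kinase, was low in both, at 142 and 364 CPM with vehicle and at 237, 29.7 and 51.5 CPM with LSN. Signalling genes had medians of -0.79 and 0.62, with 19 of 19 below 0 in LSN replicate 2 and 18 above 0 in LSN replicate 3. Akt1, a kinase of growth factor signalling, was at 236 and 319 CPM with vehicle and at 252, 107 and 383 CPM with LSN. Tgfb3, a growth factor of the TGF-beta family, hardly varied, at 31.2 and 26.1 CPM and at 28.1, 25.3 and 28.2 CPM.

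Interferon and immune genes had the medians closest to 0 in LSN replicates 2 and 3 among the 8 lists, a difference that was not tested. Of 14 at the level, 9 were below 0 in LSN replicate 2 and 10 above 0 in LSN replicate 3, with medians of -0.21 and 0.23. Ifi27l2a, an interferon-induced protein, was at 14.8 and 13.9 CPM with vehicle and at 11.6, 62.0 and 7.63 CPM in LSN replicates 1, 2 and 3. It was thus highest where the chromosome was lowest, but it met the level of 16 CPM only through that tumour. Rsad2 was at 44.4 and 28.0 CPM and at 30.2, 35.9 and 45.0 CPM, and its neighbour Cmpk2, an interferon-induced mitochondrial kinase, at 161 and 95.4 CPM and at 84.9, 111 and 155 CPM. Both were close to their 5-tumour mean in LSN replicate 2, with deviations of 0.011 and -0.062. Traf3, an adaptor of innate immune signalling, was at 58.0 and 61.2 CPM and at 66.6, 51.7 and 94.7 CPM.

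The immunoglobulin heavy chain genes near 113 Mb varied with the other markers of B and plasma cells. Ighm was at 199 and 1122 CPM with vehicle and at 29.8, 607 and 531 CPM with LSN, and Ighg1 at 0.281 and 143 CPM and at 0.448, 21.4 and 8.97 CPM. The light chain gene Igkc on another chromosome had the same order of tumours as Ighm, at 169 and 1055 CPM and at 33.0, 448 and 387 CPM. The 9 markers of B and plasma cells, Ighm among them, summed to 603 and 2634 CPM with vehicle and to 344, 1449 and 1218 CPM with LSN, and none was at 0 in any tumour. In bulk tumour tissue, fewer cells of a type and less RNA per cell cannot be told apart.

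**Figure D5:**
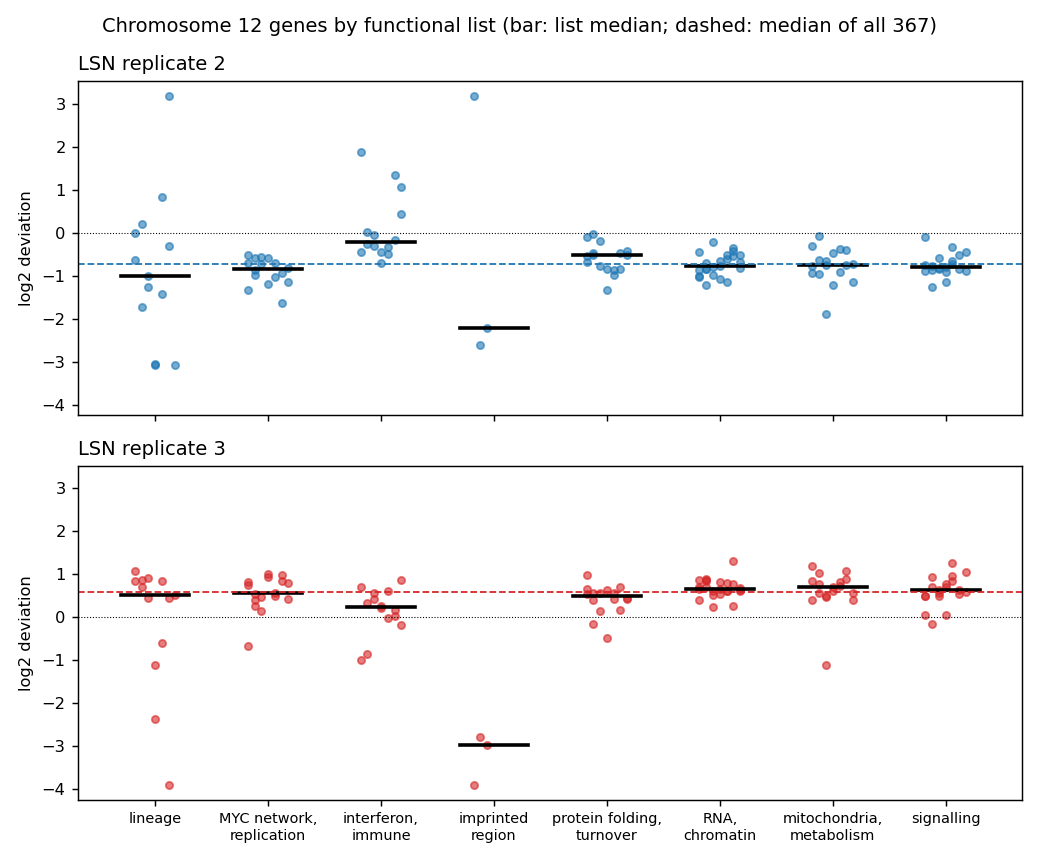
Log2 deviation of the chromosome 12 genes of 8 functional lists in LSN replicate 2 (upper panel) and LSN replicate 3 (lower panel), 1 point per gene, with list medians as black bars and the median of all 367 genes as a dashed line. List medians lie near the dashed lines, except for the imprinted region in both tumours and, by less, the interferon and immune list.

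Markers of some other cell types were lowest in LSN replicate 2. Lung epithelial markers summed to 352 CPM there, the lowest of the 5, and the 5 red blood cell markers to 10.4 CPM against 298 to 801 CPM elsewhere. In LSN replicate 3 the same lists summed to 1182 and 318 CPM. The 10 T and NK cell markers summed to 5.92 CPM in LSN replicate 2 and to 10.7 to 28.3 CPM elsewhere, with Ncr1 at 0 in LSN replicates 1 and 2, and the 7 neutrophil markers to 2.93 CPM against 5.56 to 28.1 CPM, with Mpo and Ly6g at 0 in every tumour and Retnlg in LSN replicates 2 and 3. Endothelial markers (11 of 11 detected), fibroblast and smooth muscle markers (10 of 10) and macrophage markers (11 of 11) summed to 643, 725 and 436 CPM in LSN replicate 2 and to 508, 435 and 741 CPM in LSN replicate 3. The fibroblast value was the lowest of the 5 in LSN replicate 3. The endothelial sums were carried by Vwf, the gene of von Willebrand factor, at 458 and 50.8 CPM with vehicle and at 53.0, 510 and 411 CPM with LSN. The mean log2(CPM + 1) of the 11 endothelial markers, which weights them equally, was 5.27 and 5.52 with vehicle and 4.03, 3.94 and 3.64 with LSN, lowest in LSN replicates 2 and 3. The part of the cell mixture in the shifts was not tested.

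The 4 genes farthest with the shift in LSN replicate 3 were 3 transcription factors and a membrane protein. Without LSN replicate 3, the mean levels of Sp8 and Bcl11b lie under 16 CPM. These genes therefore met the level only through the tumour in which they stand out. Sp8, a zinc-finger factor, had 117 and 176 counts with vehicle and 0, 5 and 1483 with LSN. Bcl11b, a zinc-finger factor of T cells and neurons, was at 17.0 and 11.2 CPM and at 24.6, 3.34 and 98.9 CPM. Tmem30b, a flippase subunit, was at 189 and 11.0 CPM and at 12.5, 89.0 and 319 CPM, and Grhl1, a factor of epithelial cells, at 37.5 and 12.2 CPM and at 8.90, 16.5 and 93.8 CPM. Their highest tumour was LSN replicate 3 in each case, and the lowest was LSN replicate 1 for Sp8 and Grhl1, LSN replicate 2 for Bcl11b and vehicle replicate 2 for Tmem30b.

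Comparing the treatment groups, the opposite shifts fell within the LSN group and nearly cancelled. The chromosome 12 shift averaged 0.052 ± 0.070 (SD, n = 2) with vehicle and -0.032 ± 0.66 (SD, n = 3) with LSN, a difference of -0.084. That difference was 0.27 without LSN replicate 2 and -0.39 without LSN replicate 3, so a single tumour decided its sign. The median SD of log2 CPM among the LSN tumours was 0.74 for the chromosome 12 genes and 0.34 for the other autosomes, whereas between the vehicle tumours it was 0.26 and 0.27. The median log2 fold change of LSN against vehicle was 0.10 for the chromosome 12 genes, 0.099 for the other autosomes and 0.034 for all 17906 genes tested.

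By the edgeR quasi-likelihood test, 0 of the 367 genes passed an adjusted p of 0.05 in either direction, as did 0 of all genes tested (background 0%), where DESeq2 called 14 genes higher and 86 lower over the whole table and 0 on chromosome 12. At an unadjusted edgeR p under 0.05 there were 0 higher and 3 lower, with backgrounds of 1.06% and 3.21% over all genes tested. Among genes of the other autosomes at the same level, 1.47% and 1.74% passed. On chromosome 12, DESeq2 also gave 0 higher and 3 lower. The 3 lower genes were Clec14a, a receptor of endothelial cells, Serpina3n, a protease inhibitor, and Npc2, a lysosomal cholesterol carrier. Clec14a was at 40.8 and 17.0 CPM with vehicle and at 10.7, 5.51 and 6.66 CPM with LSN, without overlap. Without vehicle replicate 1 its mean level lies under 16 CPM, so it met the level only through a tumour in which it is high. The endothelial markers were also lower with LSN by their mean log2(CPM + 1), given above. The markers did not all go that way, and Vwf was at 458 and 50.8 CPM with vehicle and at 53.0, 510 and 411 CPM with LSN. The part of endothelial content in the values of Clec14a was not tested. For Clec14a the fitted log2 fold change was -1.84 ± 0.53 (SE), at an unadjusted edgeR p of 0.015 and an adjusted one of 0.9996. Npc2 was at 235 and 724 CPM and at 208, 92.3 and 164 CPM, with a log2 fold change of -1.56 ± 0.56 (SE) and an unadjusted edgeR p of 0.0346. Serpina3n was at 18.0 and 80.5 CPM and at 11.9, 16.3 and 10.5 CPM, so vehicle replicate 2 stood alone. Without vehicle replicate 2, the mean level of Serpina3n also lies under 16 CPM.

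Of the genes higher with LSN, Tmed8, a protein of the secretory pathway, had the smallest p. It was at 68.4 and 46.8 CPM with vehicle and at 83.2, 72.7 and 152 CPM with LSN, with an unadjusted edgeR p of 0.0729. Itsn2, a scaffold of endocytosis, and Ubxn2a, an adaptor of the segregase p97, came next, with unadjusted edgeR p-values of 0.096 and 0.122. All 3 of these genes were above both vehicle tumours in every LSN tumour. With CPM scaled by TMM, 5 of the 367 genes lay above both vehicle tumours in every LSN tumour (background 8.49%) and 9 below (background 10.4%). With unscaled CPM the counts were 5 and 12, with backgrounds of 5.64% and 12.7%. These backgrounds are over all genes tested. Among genes of the other autosomes at the same level, the shares were 11.4% and 6.29% with TMM and 7.07% and 9.16% without. The interval of Tmed8 from gene start to gene end, introns included, overlaps that of Samd15 on the other strand. Intervals of 82 of the 367 genes overlap that of a gene on the other strand with a mean of 1 CPM or more. Reads from a stretch that both genes share cannot be told apart by strand in these libraries. How much of each transcript is shared was not tested.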

How the data were processed

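RNA-seq was done on 5 tumours. Per the labels' protocols, a library kit that does not keep strand was used and the authors mapped reads to mm10 with STAR. How reads were counted was not given in the sources used here. Raw read counts per gene were what the authors deposited. CPM was computed from these counts with column sums, and deviations from log2(CPM + 1), with Python 3.11.15 and pandas 2.3.3.

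LSN was compared with vehicle over all genes with edgeR 4.0.16 in R 4.3.3 (robust quasi-likelihood F test, TMM, filterByExpr with min.count 10 and min.total.count 15, Benjamini-Hochberg adjustment). It kept 17906 genes, all 367 chromosome 12 genes among them. The SE is that implied by the F statistic. DESeq2 1.42.0 was the alternative. Both the fit and the shift were tested on simulated data. With 2 and 3 tumours, an exact permutation test reaches no p under 0.1 and was not used. The floor is 3 counts (0.152 to 0.172 CPM), for counting error only. Promoters come from RefSeq (GRCm38.p6), matched by symbol.

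The genes and lists were chosen with earlier results of these data known. Genes named are list members, the 6 highest by mean CPM, the 4 farthest with and 2 farthest against the shift in the tumours with the highest and lowest shift, the 3 smallest p per direction, and the 2 on each side of the level, leaving out predicted genes; a few are not reported here.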

Additional observations from a re-analysis of the deposited data

How the results depend on the processing

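The chromosome 12 shifts of LSN replicates 2 and 3 kept their sign under every alternative run: levels of 4 or 64 CPM, centring on the median, a pseudocount of 0.5, TMM scaling, means for medians, another reference, genes within a log2 range of 2, marker genes left out, protein-coding genes only, and each tumour left out. Without the tumours left out, they ran from -0.80 to -0.69 and from 0.47 to 0.63. With single tumours left out, the ranges were -0.72 to -0.60 in LSN replicate 2, 0.40 to 0.61 in LSN replicate 3, -0.13 to 0.20 in LSN replicate 1, -0.18 to 0.14 in vehicle replicate 1 and -0.092 to 0.24 in vehicle replicate 2. The last was reversed, at -0.092, without LSN replicate 2, since each gene is then centred without its low tumour. The shifts of LSN replicate 1 and vehicle replicate 1 were then also below 0, at -0.13 and -0.18. Centred on the median of the 5 tumours, the shifts of both vehicle replicates and of LSN replicate 1 were 0. The difference of LSN minus vehicle ran from -0.39 to 0.27 with single tumours left out and from -0.12 to -0.046 otherwise. Of all genes, DESeq2 called 14 higher and 86 lower with LSN, where edgeR called 0. At an unadjusted p under 0.05, chromosome 12 genes higher with LSN numbered 1 without a count filter and 0 to 5 with single tumours left out, and those lower 1 to 10, the cause of which was not tested. No paired analysis was possible because the labels give tumour numbers that differ between all samples.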
